A study of Mus musculus with 6 samples.

Results

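The phagocyte NADPH oxidase and the formyl peptide receptors were described through 7 genes: Cybb and Cyba, which code for the membrane subunits of the oxidase, Ncf1 and Ncf4, which code for cytosolic subunits, Rac2, a small GTPase of the assembled complex, and the receptor genes Fpr1 and Fpr2. They were found by gene symbol in a table of 23361 genes, and each symbol occurred on a single line. The members had been picked because their values differed between the conditions of that table, so these values are a description and carry no test here. RNA sequencing covered 3 AUF1-null and 3 wild-type samples of cells sorted with Sdc4, a surface proteoglycan of satellite cells, from collagenase-digested hindlimb muscle of mice aged 4 months. Satellite cells are the stem cells of skeletal muscle. AUF1, encoded by Hnrnpd, is a protein that binds AU-rich elements in messenger RNA. Animals of both genotypes came through a C57BL/6 strain on a 129 background, and the labels name neither the deleted part of Hnrnpd nor a promoter or cell type that limits the deletion, nor whether samples of a genotype came from separate mice.

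The authors' deposited table gives 1 value per gene for each of 2 conditions, called q2 and q1, with replicates pooled. Values are on the FPKM scale, which corrects fragment numbers for transcript length and sequencing depth, so levels of different genes can be set side by side. No label states which condition is AUF1-null. The table's name lists wild type before knockout, but the table itself does not tie that order to q1 and q2, so directions below compare q2 with q1 and say nothing of genotype. Hnrnpd was listed at 5.59 FPKM in q2 and 7.50 FPKM in q1 in the authors' deposited table (q = 0.999), which does not separate the genotypes. With 1 pooled value per condition there is no spread between samples beside a level, and the depth of the libraries is unknown. The p and q printed below are those of Cuffdiff, the authors' program for comparing conditions, and a gene counts as called at q below 0.05.

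In neutrophils, monocytes and macrophages, the oxidase carries electrons from NADPH across a membrane to oxygen and so makes superoxide, which is used to kill microbes. Its catalytic subunit NOX2, encoded by Cybb, is held in the membrane by p22phox, encoded by Cyba, while other subunits, among them those encoded by Ncf1 and Ncf4, wait in the cytosol. On stimulation these move to the membrane together with a Rac GTPase. Formyl peptide receptors couple to Gi proteins and sense N-formylated peptides from bacteria and mitochondria, and they are among the stimuli that lead to this assembly. The complete complex is most abundant in leukocytes that enter or live in a tissue, whereas p22phox is also made in endothelial and smooth muscle cells, where it serves other NOX enzymes.

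The promoters of Fpr1, Fpr2 and Cybb are shown because all 3 genes were listed higher in q2, though of them Fpr1 alone was called, and because their promoters hold letters that transcription factors are known to read. Each sequence covers the 250 bases before and the first 30 bases from the annotated start, 5′ to 3′ on the gene's strand, from RefSeq (GRCm38.p6). Capitals mark GAGGAA, a purine-rich core read by the myeloid factor PU.1, and CCAAT, on either strand.
Fpr1: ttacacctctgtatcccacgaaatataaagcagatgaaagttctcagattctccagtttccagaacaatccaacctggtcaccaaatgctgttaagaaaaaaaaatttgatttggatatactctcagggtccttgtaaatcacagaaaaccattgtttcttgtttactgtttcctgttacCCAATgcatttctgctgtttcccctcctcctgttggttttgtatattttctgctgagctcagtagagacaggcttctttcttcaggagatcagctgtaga
Fpr2: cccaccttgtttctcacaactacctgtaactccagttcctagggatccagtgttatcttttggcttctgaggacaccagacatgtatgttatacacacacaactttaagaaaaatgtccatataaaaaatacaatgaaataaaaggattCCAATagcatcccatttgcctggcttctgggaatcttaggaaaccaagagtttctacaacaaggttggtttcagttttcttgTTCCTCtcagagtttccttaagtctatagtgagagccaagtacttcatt
Cybb: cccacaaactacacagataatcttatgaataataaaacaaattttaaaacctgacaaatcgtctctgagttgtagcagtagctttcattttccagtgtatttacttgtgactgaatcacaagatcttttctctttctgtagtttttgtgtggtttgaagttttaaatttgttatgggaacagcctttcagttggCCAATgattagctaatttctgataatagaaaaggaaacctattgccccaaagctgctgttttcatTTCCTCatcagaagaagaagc

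These windows lie at chr17:17883910-17884189 on the minus strand for Fpr1, chr17:17887574-17887853 on the plus strand for Fpr2 and chrX:9469295-9469574 on the minus strand for Cybb. GAGGAA was present on the opposite strand in Fpr2, 19 to 14 bases before the start, and in Cybb, just behind the start. CCAAT was present in all 3 windows. Over 27025 mouse promoters of the same length, 25.9% held GAGGAA and 36.6% held CCAAT on either strand, so either match is common. Promoter windows were at hand for 5 of the 7 genes, also for Ncf1 and Cyba, which held neither motif. Other motifs were searched on both strands in these 5 windows. AGGAAG, which can overlap GAGGAA by AGGAA, and the C/EBP-like TTGCNNAA were found in none of them, against 32.5% and 10.3% of all promoters, and TATAAA was found in Fpr1 and Fpr2, against 13.7%. A match is a run of letters and not a binding site.

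The genes lie on 5 chromosomes, and the receptor genes are neighbours. Fpr1 was placed at chr17:17876471-17883939 and Fpr2 at chr17:17887824-17893952 (GRCm38), on opposite strands and head to head with 3884 bases between them. Ncf4, at chr15:78244811-78262580, and Rac2, at chr15:78559169-78572783, lie 296588 bases apart. Of 7 tested genes between Ncf4 and Rac2, none was called, and their log2 fold changes ran from -0.71 to 1.83 in the authors' deposited table. Ncf1 was placed at chr5:134220260-134229625, Cyba at chr8:122424771-122432940 and Cybb at chrX:9435252-9469324. All 7 overlapped the protein-coding gene of that symbol in GENCODE vM21.

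How far reads can be assigned to a single gene differs among the 7. Of all stretches of 50 bases in the longest coding transcript, none was shared with transcripts of another gene for Ncf4, Cyba and Cybb, 0.0784% were shared for Fpr1 and 1.34% for Rac2. Fpr2 shared 37.2% of its stretches, 33.9% with the predicted gene Gm5966 and 7.10% with Fpr3, whose coding sequence is 88.1% identical to that of Fpr2. In GENCODE Fpr3 also overlaps Fpr2 on the same strand. The Fpr2 level, and the 0 listed for Fpr3, are therefore uncertain, whereas the coding sequences of Fpr1 and Fpr2 are only 66.3% identical. Ncf1 shared 7.91% with Gtf2ird2, which overlaps it on the opposite strand in GENCODE, and whether counting used strand is not stated. Gtf2ird2 was listed at 2.25 FPKM in q2 and 1.35 FPKM in q1 in the authors' deposited table, well under the level of Ncf1. Cyba overlaps the predicted gene Gm20388 on the opposite strand in that annotation, which was not analysed here.

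Transcripts of both membrane subunits were more abundant in q2, and neither difference was called. Cybb, the catalytic subunit, was listed at 50.9 FPKM in q2 and 19.97 FPKM in q1, a log2 fold change of 1.35 (q = 0.159 in the authors' deposited table). Cyba, its membrane partner, was listed at 311 FPKM in q2 and 185 FPKM in q1, a log2 fold change of 0.75 (q = 0.805 in the authors' deposited table). Cyba had the highest level of the 7 genes in both conditions and the smallest fold change, 1.68-fold. Its FPKM was 6.11 times that of Cybb in q2 and 9.25 times in q1, so the listed level of Cybb lay closer to that of Cyba in q2. Whether this ratio differs beyond the spread between samples was not tested. In bulk RNA such as this, more cells of a type and more RNA per cell cannot be told apart.

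Among the cytosolic subunits Ncf1 was called and Ncf4 was just beyond the threshold. Ncf1 codes for p47phox, the organizer that docks on p22phox, and was listed at 33.3 FPKM in q2 and 9.87 FPKM in q1 in the authors' deposited table. This is 3.37-fold, or 1.75 on the log2 scale (p = 0.0002, q = 0.0358 in the authors' deposited table). Ncf4 codes for p40phox, which binds a phosphoinositide of phagosome membranes. It was listed at 46.5 FPKM in q2 and 15.4 FPKM in q1, a log2 fold change of 1.60 (q = 0.0626 in the authors' deposited table). Both were thus higher in q2, 3.03-fold for Ncf4 and 3.37-fold for Ncf1, and the FPKM of Ncf4 was 1.40 times that of Ncf1 in q2 and 1.56 times in q1.

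Rac2, the Rac GTPase of blood cells, was called, whereas its widely expressed relative Rac1 was listed lower in q2 without a call. Rac2 was at 66.2 FPKM in q2 and 17.4 FPKM in q1, a log2 fold change of 1.93, or 3.81-fold (p = 5e-05, q = 0.0108 in the authors' deposited table). Rac1 was at 77.1 FPKM in q2 and 134 FPKM in q1, a log2 fold change of -0.80 (q = 0.901 in the authors' deposited table). Rac3, another gene of this family, was at 1.32 FPKM in q2 and 0.814 FPKM in q1 there. Over the 3 genes the sum was 145 FPKM in q2 and 152 FPKM in q1, and Rac2 made up 45.8% of it in q2 and 11.4% in q1. Rac2 and Rac1 thus lay on opposite sides of 0, and the difference between their fold changes was not tested.

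**Figure D1:**
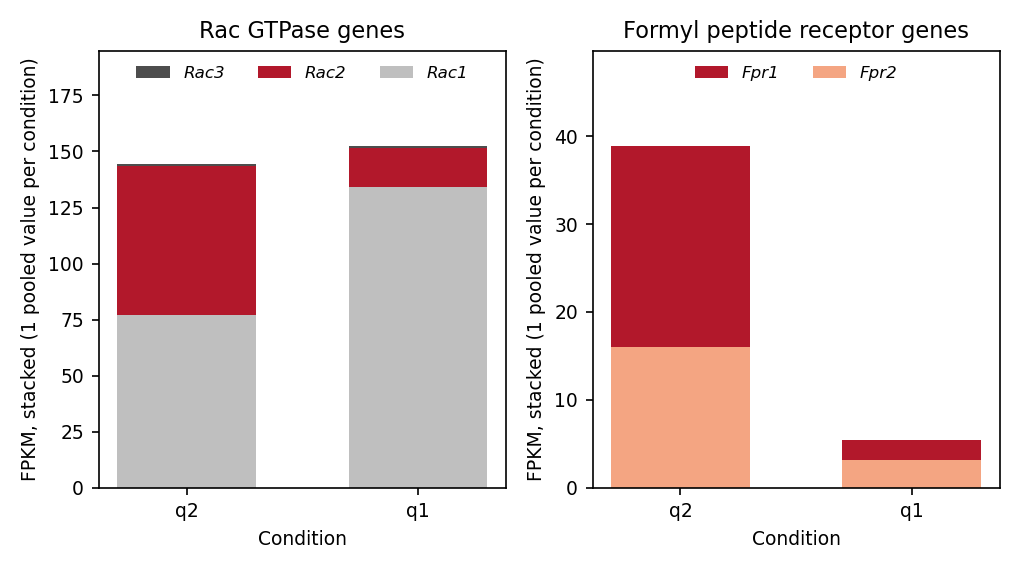
Stacked FPKM of the Rac genes (left) and of Fpr1 and Fpr2 (right), 1 pooled value per gene and condition, with no error bars because no values per sample were used. Rac2 makes up 45.8% of the Rac sum in q2 and 11.4% in q1, at sums of 145 FPKM in q2 and 152 FPKM in q1, while the receptor sum is 38.8 FPKM in q2 and 5.45 FPKM in q1. The Fpr2 level is uncertain because of shared sequence.

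The formyl peptide receptor genes had the largest fold changes of the 7. Fpr1, the high-affinity receptor for N-formyl peptides, was listed at 22.9 FPKM in q2 and 2.26 FPKM in q1 in the authors' deposited table. This was a log2 fold change of 3.34, or 10.1-fold (p = 5e-05, q = 0.0108 in the authors' deposited table). Fpr2, which also binds host ligands such as annexin A1, was at 15.97 FPKM in q2 and 3.19 FPKM in q1, a log2 fold change of 2.32, or 5.00-fold (p = 0.00405, q = 0.288 in the authors' deposited table). Fpr1 made up 58.9% of the summed level of both receptors in q2 and 41.5% in q1, so their listed order differed between conditions. These shares and this order are uncertain, because Fpr2 shares sequence with other genes. Whether the order itself differs beyond the spread between samples was not tested. Fpr3, Fpr-rs3, Fpr-rs4 and Fpr-rs6, receptor genes of the same cluster that are known from mouse vomeronasal neurons or from leukocytes, were listed at 0 in both conditions and not tested by the authors. Fpr-rs7 was not analysed here.

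**Figure D2:**
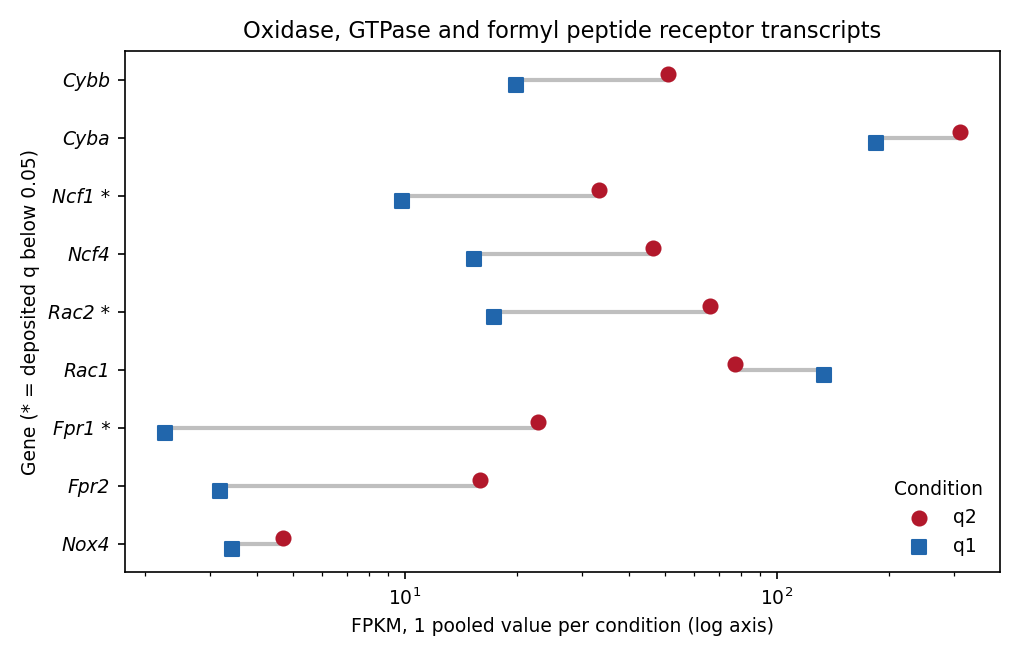
FPKM on a log axis in q2 (circles) and q1 (squares), 1 pooled value per gene and condition, for the 7 genes and for Rac1 and Nox4, with asterisks at genes of deposited q below 0.05. All genes but Rac1 lie higher in q2, and the gap is widest for Fpr1, at 22.9 FPKM in q2 and 2.26 FPKM in q1.

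In all, 7 of 7 members were tested by the authors, 3 were called higher in q2 (Fpr1, Rac2 and Ncf1), none was called lower and 4 were not called. Over all 14858 tested genes, 74 or 0.498% were called higher and 17 or 0.114% lower in the authors' deposited table. Because the members were picked on this very contrast, nothing is read from their share. The median log2 fold change of the 7 was 1.75, against -0.01 over the 14779 tested genes above 0 in both conditions. Fpr1 ranked within the top 0.623% of these genes by log2 fold change, Rac2 within the top 2.73% and Cyba within the top 10.5%. By the unadjusted p below 0.05, a threshold chosen after the values were seen, all 7 members passed, where 553 tested genes or 3.72% were higher in q2. Nothing is read from this count either, since picking genes that differ in this contrast favours a low p.

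**Figure D3:**
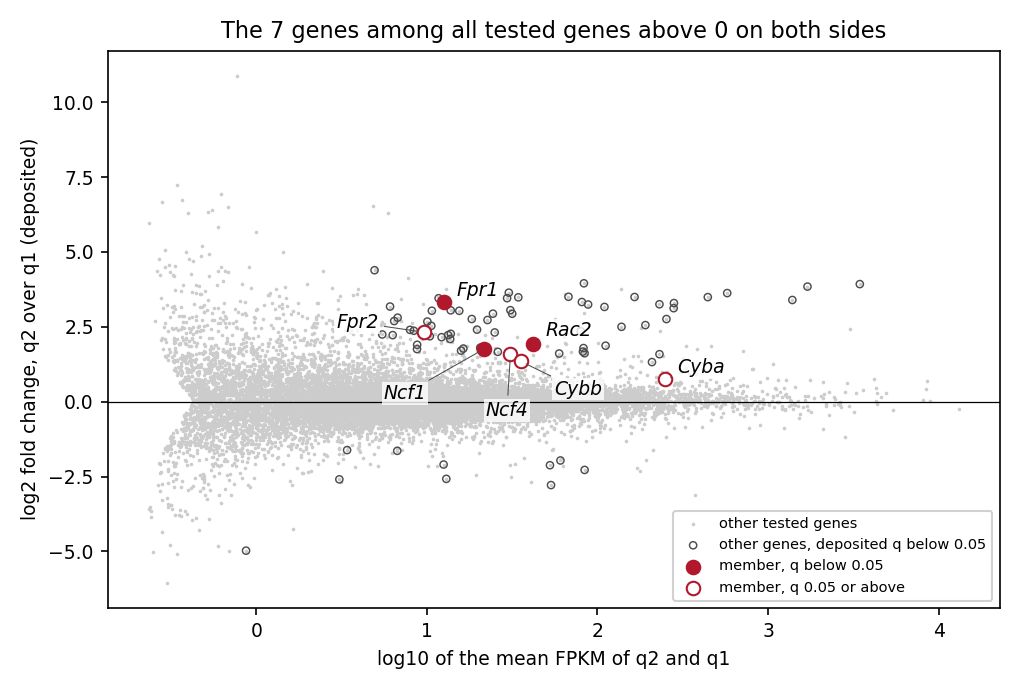
Deposited log2 fold change of q2 over q1 against log10 of the mean FPKM for the 14779 tested genes above 0 in both conditions. The 7 genes all lie above 0, from 0.75 for Cyba to 3.34 for Fpr1, and filled points mark the 3 with a deposited q below 0.05.

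By level, the order in q2 was Cyba, Rac2, Cybb, Ncf4, Ncf1, Fpr1 and Fpr2, and in q1 it was Cyba, Cybb, Rac2, Ncf4, Ncf1, Fpr2 and Fpr1. Rac2 and Cybb, and Fpr1 and Fpr2, thus stood in the other order, the receptors with an uncertain Fpr2 level. In q2 Cybb was 1.09 times Ncf4, and in q1 Cybb was 1.15 times Rac2 and Rac2 1.13 times Ncf4, ratios too close to order without a spread. Cyba held 56.9% of the summed FPKM of the 7 genes in q2 and 73.1% in q1. Without Cyba, the other 6 genes summed to 236 FPKM in q2 and 68.0 FPKM in q1.

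No gene of the other NADPH oxidases was called, and all were low in both conditions. Nox4, the oxidase of endothelial and mesenchymal cells, was listed at 4.72 FPKM in q2 and 3.43 FPKM in q1 (q = 0.999 in the authors' deposited table). Of the 9 genes of this list, 5 were tested and none was called, with 2 above and 3 below 0 and a median log2 fold change of -0.25. Duoxa1, a maturation factor of the dual oxidases, was at 2.74 FPKM in q2 and 2.67 FPKM in q1 in the authors' deposited table. Noxo1, an organizer subunit of NOX1, was at 1.46 FPKM in q2 and 1.74 FPKM in q1 there. Duox1 was at 0.157 FPKM in q2 and 0.606 FPKM in q1, and Duoxa2 at 0.211 FPKM in q2 and 0.888 FPKM in q1 in the authors' deposited table. Nox1 and Duox2 were at most 0.164 FPKM in both conditions, and Nox3 and Noxa1 were listed at 0.

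Genes that regulate the oxidase or act around the receptors held few called genes, and in each list most tested members lay above 0. Since 0.498% of all tested genes were called higher, few calls are the rule for lists of this size, and 48.7% of tested genes above 0 FPKM in both conditions had a log2 fold change above 0. None of 13 oxidase regulators was called, although 12 lay above 0 and their median was 0.67 on the log2 scale. Arhgdib, whose product holds Rac2 in the cytosol of leukocytes, was at 463 FPKM in q2 and 169.7 FPKM in q1 (q = 0.0825), and the widely expressed Arhgdia at 246 FPKM in q2 and 249.6 FPKM in q1 (q = 0.999) in the authors' deposited table. For the receptors' signalling proteins, 0 of 11 were called, with 8 above 0 and a median of 0.64. Gnb1, a G protein beta subunit, was at 316 FPKM in q2 and 159 FPKM in q1, while Gnai2, an alpha subunit of the Gi class, was at 173 FPKM in q2 and 245 FPKM in q1 in the authors' deposited table.

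Among 6 ligands of these receptors, 1 was called. Camp, whose product is the neutrophil granule peptide CRAMP, was at 1067 FPKM in q2 and 86.4 FPKM in q1 (q = 0.0108 in the authors' deposited table), and it also stands on the neutrophil list. The median log2 fold change of the ligands was 1.27. None of 8 other chemoattractant receptors was called, with 7 above 0 and a median of 0.80. The complement receptor gene C5ar1 was at 80.9 FPKM in q2 and 41.6 FPKM in q1, and the chemokine receptor gene Ccr1 at 28.3 FPKM in q2 and 12.3 FPKM in q1 in the authors' deposited table. Of 20 genes that handle superoxide and peroxide, Mpo alone was called, and it also stands on the neutrophil list. Mpo codes for the granule enzyme myeloperoxidase, which uses peroxide derived from the oxidase, and was at 159.6 FPKM in q2 and 16.8 FPKM in q1 (q = 0.0108 in the authors' deposited table). The median of this list was 0.25, with 14 genes above and 6 below 0. Of 6 tested myeloid transcription factors none was called, all lay above 0, and the median was 0.68. Cebpb was at 38.1 FPKM in q2 and 29.5 FPKM in q1, Cebpd at 28.2 FPKM in q2 and 21.5 FPKM in q1, and the PU.1 gene, listed as Sfpi1, at 1.18 FPKM in q2 and 0.678 FPKM in q1 in the authors' deposited table. Cebpe had the largest log2 fold change of this list, 3.55, at 6.85 FPKM in q2 and 0.583 FPKM in q1 (q = 0.128 in the authors' deposited table).

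The tested neutrophil, lymphocyte and pan-leukocyte markers all lay above 0, as did the 7 genes. Of the monocyte and macrophage markers 13 of 16 lay above 0, and of the eosinophil markers 6 of 7. The part of these markers in the result was not tested. All 15 tested neutrophil markers lay above 0, 11 of them called higher, and their summed level was 15874 FPKM in q2 and 1242 FPKM in q1, a ratio of 12.8. S100a8, a calprotectin subunit, was at 6478 FPKM in q2 and 426 FPKM in q1, S100a9, the other subunit, at 3185 FPKM in q2 and 222 FPKM in q1, and the collagenase gene Mmp8 at 56.0 FPKM in q2 and 4.49 FPKM in q1 in the authors' deposited table. None of these markers was at 0 in either condition, and Ly6g was not analysed here. The list's median log2 fold change was 3.49. Only Fpr1, at 3.34, was near it, with 6 of the 15 markers below Fpr1, against 3 below Rac2 and Fpr2 and 2 below Ncf1.

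The 16 monocyte and macrophage markers summed to 3724 FPKM in q2 and 1840 FPKM in q1, a ratio of 2.02, with 13 above 0, 3 called higher and a median log2 fold change of 0.70. The called ones were Ly6c2, at 124 FPKM in q2 and 10.97 FPKM in q1, Tyrobp, a signalling adaptor, at 347 FPKM in q2 and 115 FPKM in q1, and the chemokine receptor gene Ccr2, at 25.4 FPKM in q2 and 7.41 FPKM in q1 in the authors' deposited table. Some other genes of this list lay below or near 0. Csf1r, the receptor for macrophage colony-stimulating factor, was at 49.7 FPKM in q2 and 83.8 FPKM in q1, a log2 fold change of -0.75 (q = 0.999 in the authors' deposited table). Emr1, a macrophage surface receptor gene, was at 23.5 FPKM in q2 and 26.3 FPKM in q1, Mrc1 at 38.7 FPKM in q2 and 39.3 FPKM in q1, Cd68 at 120.2 FPKM in q2 and 102 FPKM in q1 and C1qc at 96.5 FPKM in q2 and 89.0 FPKM in q1 in the authors' deposited table, also without a call. These 5 were chosen after their values were seen. Ly6c2 can share reads with near copies and is uncertain. The fold change of 6 of the 7 members lay above that of at least 11 of the 16 markers, while Cyba lay above that of 9. Pan-leukocyte markers summed to 747 FPKM in q2 and 271 FPKM in q1, a ratio of 2.75, with 7 of 7 above 0, 2 called higher and a median of 1.05. Of these Cd52 was at 235 FPKM in q2 and 41.6 FPKM in q1 and Coro1a, an actin regulator of leukocytes, at 129 FPKM in q2 and 37.2 FPKM in q1 in the authors' deposited table. All 7 pan-leukocyte markers had a log2 fold change below that of Fpr1 and above that of Cyba.

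Most markers of eosinophils and lymphocytes lay above 0, and most were not called. Over all tested genes 0.498% were called higher. Nothing is read from the share in either list, since the lists were chosen with earlier results of these data known. The 7 eosinophil markers summed to 566 FPKM in q2 and 60.6 FPKM in q1, with 6 above and 1 below 0, 2 called higher and a median of 2.68 on the log2 scale (2.07 after adding 1 FPKM to both values). Prg2, the granule major basic protein, was at 509.9 FPKM in q2 and 52.0 FPKM in q1, and Epx, eosinophil peroxidase, at 17.4 FPKM in q2 and 2.73 FPKM in q1 in the authors' deposited table. Il5ra, the interleukin receptor gene of eosinophils, was the marker below 0, at 0.570 FPKM in q2 and 0.812 FPKM in q1 there, and it was not called. The 9 lymphocyte markers summed to 80.7 FPKM in q2 and 18.1 FPKM in q1, with 8 tested, all above 0, 1 called higher and a median of 2.11 (1.46 after adding 1 FPKM). Nkg7, of cytotoxic lymphocytes, was the called one, at 27.6 FPKM in q2 and 3.37 FPKM in q1 in the authors' deposited table. No marker of either list was at 0 in q2 or q1, but some were near the floor. Of the eosinophil markers, Il5ra, Siglec5 and Ccr3 were below 1 FPKM in both conditions. Siglec5 had the list's largest log2 fold change, 7.23, at 0.687 FPKM in q2 and 0.00457 FPKM in q1 (q = 0.999 in the authors' deposited table). Prg2 made up most of the eosinophil sum.

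No marker of satellite cells or endothelium was called. Of 10 satellite cell markers, none was called, with 5 above and 5 below 0, a median log2 fold change of -0.07 and sums of 605 FPKM in q2 and 578 FPKM in q1. Sdc4, used for the sort, was at 269.7 FPKM in q2 and 173 FPKM in q1, and Cd34 at 219 FPKM in q2 and 259.5 FPKM in q1 in the authors' deposited table. Pax7, the defining transcription factor of satellite cells, was at 0.854 FPKM in q2 and 1.16 FPKM in q1 there, so it was low in both. All 10 endothelial markers lay below 0 without a call, with a median of -0.25. Their summed level was 2647 FPKM in q2 and 3079 FPKM in q1, and Egfl7 was at 822 FPKM in q2 and 911 FPKM in q1 and Esam at 602 FPKM in q2 and 663 FPKM in q1 in the authors' deposited table. Endothelial transcripts were thus abundant in the sorted cells, and the cell type from which Cyba reads came was not tested.

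**Figure D4:**
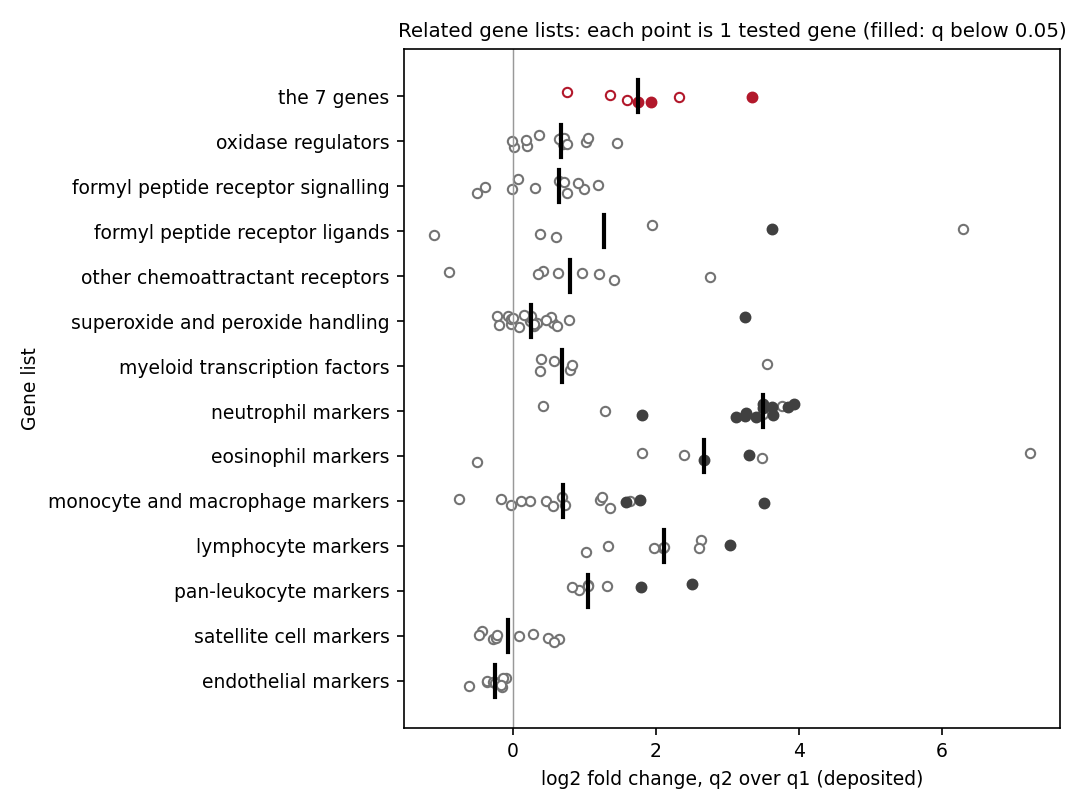
Deposited log2 fold change of q2 over q1 for each tested gene of the related lists (points, filled where the deposited q was below 0.05), with the median of each list as a black line. The 7 genes have a median of 1.75, below those of the neutrophil (3.49), eosinophil (2.68) and lymphocyte markers (2.11). It lies above those of the pan-leukocyte markers (1.05) and of the monocyte and macrophage markers (0.70). The satellite cell and endothelial medians lie at -0.07 and -0.25.

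For each member the tested gene with the most similar levels was sought, by the distance of log2(FPKM + 1) over the 2 conditions, a measure that rests on only 2 pooled values. The nearest gene to Fpr1 was Trem3, a myeloid receptor gene, at 21.5 FPKM in q2 and 1.96 FPKM in q1, which was called as well (q = 0.0108 in the authors' deposited table). Nearest to Fpr2 was Ear2, a ribonuclease gene on the eosinophil list, at 15.9 FPKM in q2 and 3.02 FPKM in q1. Ear2 was not called (q = 0.999 in the authors' deposited table). The nearest genes were Ctse for Ncf1, Cks2 for Ncf4, Ckm for Cyba, Mir706 for Cybb and Pvalb for Rac2, none of them called. Ckm and Pvalb are genes of muscle fibres, so likeness over 2 values does not follow cell type.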

How the data were processed

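RNA sequencing data of 6 samples were used through 1 gene table. The submitters' processing notes name Cufflinks 2.2.1, TopHat2 2.0.9 and the build mm9, but the gene positions are those of GRCm38, and all 7 members overlapped their GRCm38 gene; starts are printed with 1 added. The annotation and the library normalization are not stated. Per the file headers, each gene has 1 value per condition from the authors, on the FPKM scale of Cuffdiff with replicates pooled, a log2 fold change, a test statistic used here as a score only and not printed, and the p-value and q-value of the comparison, all deposited by the authors. No genotype was assigned to q1 or q2. Of 23361 genes, 14858 had the status OK and count as tested. Whatever spread between samples lies behind the p-values may be technical.

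Members and gene lists were chosen with earlier results of these data known. Called means a deposited q below 0.05. Medians leave out genes at 0 on either side. Genes named from a list are up to 4 called ones or, with none called, the 2 with the highest mean; the members, the oxidase and receptor families, except for an item that is not reported here, and the nearest gene of each member are always named, and Pax7, Rac3, Hnrnpd, Sfpi1, Il5ra, 5 macrophage markers and genes that overlap or share sequence were added after their values were seen. List symbols missing from the table were looked up among RefSeq synonyms, which matched C5ar2 and Sfpi1. Shared stretches of 50 bases, on both strands, and coding identity came from GENCODE vM21 transcripts. The calculations ran in Python 3.11.15 with pandas 2.3.3 and Biopython 1.88, and the adjustment and fold changes were tested on simulated data.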

Additional observations from a re-analysis of the deposited data

How the results depend on the processing

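The count of called members stayed at 3 or 4 under a q below 0.1, a minimum of 1 or 10 FPKM with p adjusted again, a minimum fold of 2 and without genes at 0; Ncf4 was the added gene, with a q of 0.0388 at a minimum of 10 FPKM. At a q below 0.01 there were 0 called members and 0 called genes, since the smallest deposited q by Cuffdiff is 0.0108. At an unadjusted p below 0.05, added after the data were seen, 7 members and 890 genes passed. All called genes numbered from 73 to 110 under the other settings, against 91. Pseudocounts of 0.1 and 1, centring on the median gene and scaling to equal sums, which shifts every log2 fold change by -0.12, kept all 7 members above 0; Fpr1 was at 2.87 with a pseudocount of 1. Of the list medians, those of eosinophil and lymphocyte markers moved by over 1.5-fold with a pseudocount of 1, to 2.07 and 1.46. No paired analysis was possible because the table holds 1 pooled value per condition; for the same reason no replicate could be left out. How depth limits the values of the receptors and other low genes cannot be stated, because no counts were used.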
